A study of Mus musculus with 19 samples.

Results

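The mammalian brain clears the amyloid-beta peptide in part by cutting it, and several unrelated peptidases share this work. The 8 genes described here were chosen as those of proteases known to cleave amyloid-beta: Ide, Mme, Ece1, Ece2, Ace, Mmp2, Mmp14 and Plat. The product of Plat acts by way of plasmin. All 8 were found among the 20655 genes of the count table, and 8 of 8 passed the filter on low counts that left 18204 genes for testing. Their RNA was measured by bulk RNA sequencing of the left hippocampus of 19 saline-perfused mice aged 4 months, with 1 library for each animal.

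Every animal carried the 5xFAD transgenes, written 5xFADHEMI in the labels, which drive mutant human amyloid precursor protein and presenilin from the neuronal Thy1 promoter and give plaques early in life. The knock-in mice (4 females and 5 males) had the genotype 5xFADHEMI:CLUh2kbKIHO, in which HO is read here as homozygous for a knock-in at the gene of clusterin, a secreted chaperone and lipid carrier. The 5xFAD mice (5 females and 5 males) had 5xFADHEMI alone. The comparison asks how RNA levels differ between clusterin knock-in and plain 5xFAD hippocampus. Mice that lack the transgenes are not analysed here. The labels give no strain, litter, cohort or date, and animal numbers run in separate blocks by genotype. A difference of genotype and one of cohort therefore cannot be told apart.

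Total counts ran from 17.28 to 25.2 M for each library, where M stands for mega. Levels are given in CPM, counts per M of library size with TMM factors. Clu itself stood at 1069 ± 214 CPM in knock-in mice (SD, n = 9) and 979 ± 120 CPM in 5xFAD mice (SD, n = 10), a log2 change of 0.13 (edgeR adjusted p = 0.665), and inserted human sequence need not be counted when the reference is mouse. The mean log2 CPM of 8 long noncoding RNAs, a measure of RNA composition, was 6.53 ± 0.43 in knock-in females (SD, n = 4), 8.21 ± 0.17 in 5xFAD females (SD, n = 5), 7.81 ± 0.53 in knock-in males (SD, n = 5), against 7.67 ± 0.74 in 5xFAD males (SD, n = 5), of which male 10 had 6.41. Markers of neurons, astrocytes, oligodendrocytes and microglia were present in all 19 libraries, with none at 0.

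As background, the 8 enzymes differ in where they meet their substrate. The insulin-degrading enzyme (Ide) is a largely cytosolic zinc protease that degrades insulin, amylin and monomeric amyloid-beta. Neprilysin (Mme) and the endothelin-converting enzymes (Ece1 and Ece2) belong to another zinc protease family. Neprilysin acts at the cell surface, while the endothelin-converting enzymes act in part within acidic compartments of the cell. Angiotensin-converting enzyme (Ace) is a membrane peptidase of blood vessels and choroid plexus. Mmp2 is a secreted gelatinase that the membrane protease encoded by Mmp14 activates, and Plat encodes tissue plasminogen activator, which produces plasmin.

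The annotated start regions of 3 genes on which the results turn are shown, Ide and its neighbour Fgfbp3, which had the highest log2 changes of their stretch of chromosome 19, and Ace, whose level ranged most widely. Each is the 250 bases before a RefSeq transcript start on GRCm38.p6, read along the gene. Capitals mark 4 motifs on either strand. The GC box was searched as GGGCGG. The CCAAT box was searched by the letters of its name, and the TATA box as TATAAA. Every CpG pair is also in capitals, and a GC box holds a CpG.
Ide, chr19:37334545-37334794, minus strand: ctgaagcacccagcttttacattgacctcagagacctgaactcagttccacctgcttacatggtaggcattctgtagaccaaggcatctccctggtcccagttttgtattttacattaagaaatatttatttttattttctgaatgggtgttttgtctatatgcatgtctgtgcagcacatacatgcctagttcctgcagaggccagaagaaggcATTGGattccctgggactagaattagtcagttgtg
Fgfbp3, chr19:36919600-36919849, minus strand: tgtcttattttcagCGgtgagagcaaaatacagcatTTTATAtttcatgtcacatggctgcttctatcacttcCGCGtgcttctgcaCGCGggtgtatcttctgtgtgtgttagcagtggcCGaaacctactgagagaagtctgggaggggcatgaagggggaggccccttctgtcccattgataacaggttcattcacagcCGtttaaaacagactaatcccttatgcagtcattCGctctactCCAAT
Ace, chr11:105967698-105967947, plus strand: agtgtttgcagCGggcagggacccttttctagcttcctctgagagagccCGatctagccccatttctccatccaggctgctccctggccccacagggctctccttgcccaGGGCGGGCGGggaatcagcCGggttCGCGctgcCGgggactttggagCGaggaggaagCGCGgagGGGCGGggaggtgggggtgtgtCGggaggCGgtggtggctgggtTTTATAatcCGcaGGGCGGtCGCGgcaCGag

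The RefSeq window of Ide held 0 CpG pairs and 1 CCAAT box, and its start lies 3931 bases from the start of the nearest GENCODE M21 protein-coding transcript on the same build, so it is an upstream start of the gene. The windows of Fgfbp3 and Ace end 16 and 3 bases from such a start. Fgfbp3 had 8 CpG pairs, 1 CCAAT box and 1 TATA box, and the window of Ace shown had 19 CpG pairs, 4 GC boxes and 1 TATA box. A second RefSeq window of Ace, not shown, had 1 CpG pair, 1 CCAAT box, 0 GC boxes and 0 TATA boxes. It ends 19 bases from a protein-coding start. Over the 32851 windows of the table, 32.7% held a GC box, 33.8% a CCAAT box, 12.4% a TATA box and 92.1% a CpG. Of the 8 proteases 6 had an entry, and Mmp2 and Plat had none.

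Scaled by gene length (CPM for each kilobase of merged exons), Ace and Ide had the highest mean levels of the 8, at 10.5 ± 8.83 and 10.1 ± 3.50 CPM per kb (SD, n = 19 for each mean). Ace lay above Ide in 8 of 19 libraries, so the order of these neighbours did not hold across animals. Ece1 followed at 7.01 ± 0.94 CPM per kb, below Ide in 13 of 19 libraries. Plat at 5.05 ± 0.61 and Ece2 at 4.91 ± 0.97 CPM per kb were not separated either, with Plat above in 12 of 19. Mmp14 (2.73 ± 0.49 CPM per kb), Mmp2 (1.17 ± 0.56) and Mme (0.459 ± 0.090) formed the low end, and each lay above the next in 19 of 19 libraries. The hippocampus thus held little neprilysin RNA beside Ide RNA, with 57 to 148 counts of Mme in each library against 679 to 2596 counts of Ide. The raw counts are not scaled by length.

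**Figure D1:**
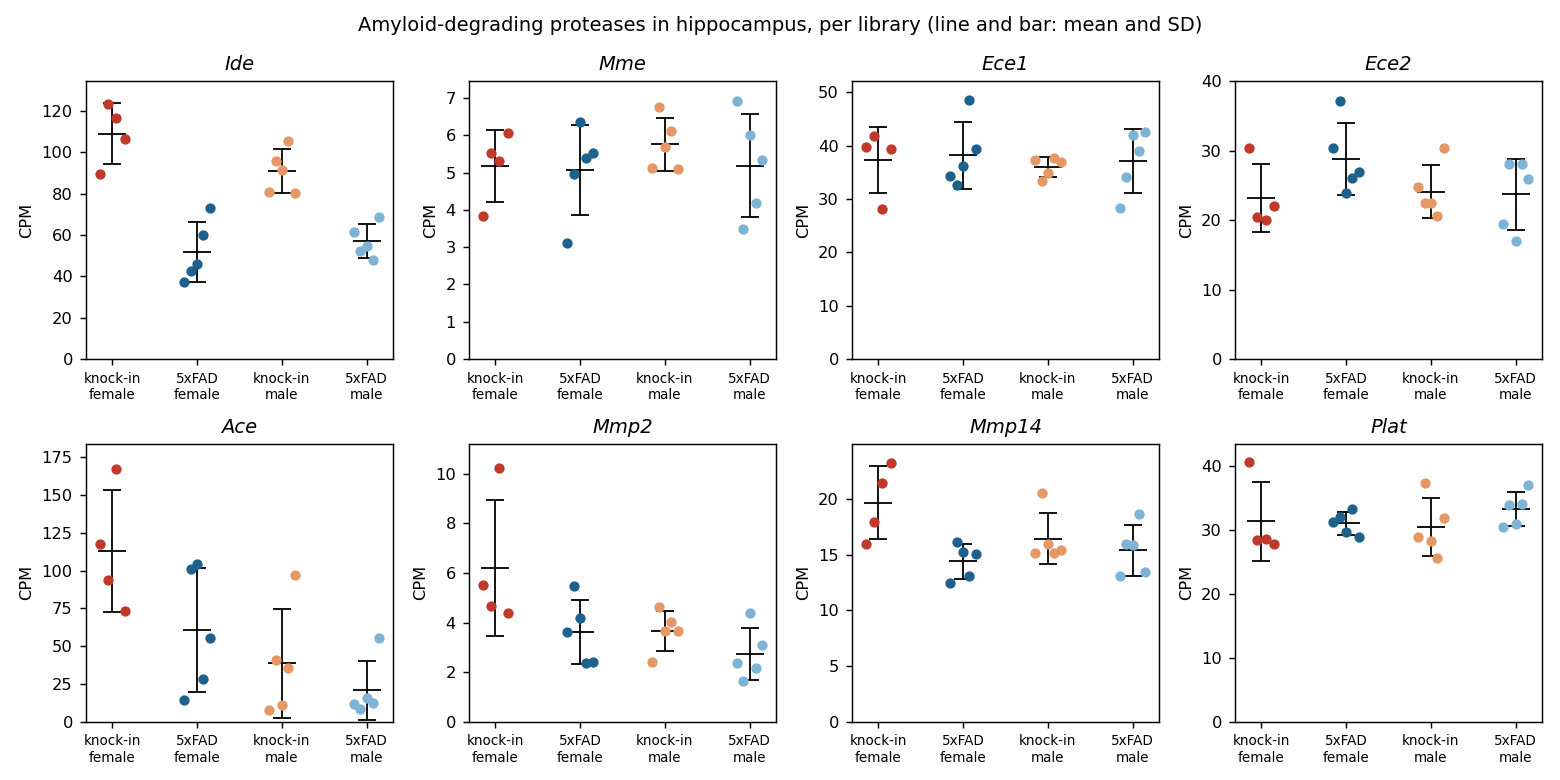
Level of each protease in CPM (y axis, from 0, with its own scale in each panel) in every library, by genotype and sex (x axis). Points are animals, and the line and bar are the group mean and SD. In the panel of Ide the knock-in points, at 80.3 to 123 CPM, all lie above the 5xFAD points, at 37.2 to 73.2 CPM, while the groups overlap in the other 7 panels.

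Ide was the member that rose with the knock-in. Knock-in females had 89.3, 106, 117 and 123 CPM, against 37.2, 42.3, 45.8, 59.9 and 73.2 CPM in 5xFAD females. Knock-in males had 80.3, 80.9, 91.4, 96.0 and 105 CPM, against 47.9, 52.0, 54.8, 61.7 and 68.7 CPM in 5xFAD males. The lowest knock-in library of either sex thus stood above the highest 5xFAD library of either sex. Ide was the 1 gene of the 18204 tested (0.00549%) for which this held.

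Over both sexes the mean of Ide was 98.8 ± 15.1 CPM in knock-in mice (SD, n = 9) and 54.3 ± 11.6 CPM in 5xFAD mice (SD, n = 10), a fold of 1.82. On the log2 scale the change was 0.86 (SE 0.12), with an unadjusted p of 2.03e-07 and an adjusted p of 0.0037 by edgeR's quasi-likelihood test with Benjamini-Hochberg adjustment over all tested genes. This was the lowest p of the 18204 genes. Of the 8 proteases 1 passed the threshold of 0.05 upward and 0 downward, where 0.022% of all tested genes passed upward and 0% downward. The median log2 change of the 8 was 0.18, with 5 of 8 above 0, beside a median of -0.0013 and 49.6% above 0 over all tested genes.

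By sex, the log2 change of Ide was 1.07 in females (SE 0.16, edgeR adjusted p = 0.00984), beside 0.67 in males (SE 0.15, unadjusted p = 0.000233, adjusted p = 0.433). In females 1.13% of all genes passed upward and 4.43% downward, and Ide had the lowest p of all. In males 0% of genes passed with edgeR, and none with limma-voom, while 6.52% were under 0.05 without adjustment. DESeq2 called 19 genes, Ide among them (adjusted p = 0.0443). The groups of males did not overlap for Ide, which held in this direction for 0.527% of genes, and neither did those of females (3.86% of genes). The change in females minus that in males was 0.40 (SE 0.22, adjusted p = 0.354), so a difference between the sexes was not shown. With the noncoding level as a covariate, which did not overlap between the groups of females, it was 0.04 (adjusted p = 0.999). Without that covariate 0.308% of genes passed this test.

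The call in females was lost in some fits, together with all other calls. Without knock-in female 2 the log2 change was 1.00 (edgeR adjusted p = 0.0546), and without knock-in female 4 it was 1.06 (adjusted p = 0.0637). In each of these fits 0 genes passed in all, against 1013 with every library. With the noncoding RNA level as a covariate the change in females was 0.75 (adjusted p = 1, with 0 genes passing in all), and the change over both sexes was 0.72 (adjusted p = 0.0375). In females this level did not overlap between genotypes, so the fit cannot decide the change there.

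**Figure D2:**
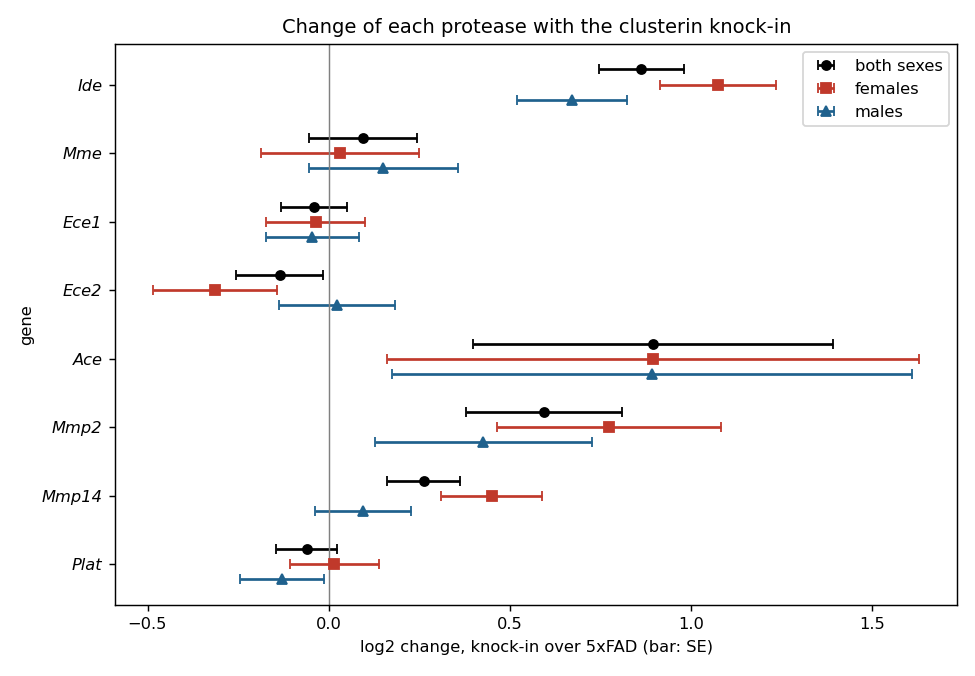
Log2 change of each protease, knock-in over 5xFAD (x axis), from edgeR, with genes down the y axis. Circles are both sexes, squares females and triangles males, and bars are SE as derived from the F statistic. Ide lies at 0.86, 1.07 and 0.67, Ace at 0.89 to 0.90 with bars several times wider, and Mme, Ece1 and Plat lie near 0.

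Several cell type markers had values on the same side as Ide. Over both sexes, log2 changes were above 0 in 6 of 6 oligodendrocyte markers (median 0.19) and 4 of 4 markers of their precursors (0.27). They were above 0 in 6 of 6 mural cell (0.20) and 6 of 7 endothelial markers (0.16), beside 49.6% of all genes. Of the 6 pan-neuronal and 6 interneuron markers, 2 of each were above 0 (medians -0.03 and -0.10). The 8 microglia markers summed to 526 to 847 CPM in knock-in mice and 365 to 654 CPM in 5xFAD mice, with 8 of 8 log2 changes above 0 (median 0.40). Of these 0 passed with edgeR or limma-voom and 3 with DESeq2, and the unadjusted p was under 0.05 for 8, beside 11.9% of all genes. The 7 astrocyte markers summed to 4235 to 6090 CPM in knock-in mice and 3699 to 4796 CPM in 5xFAD mice, again with 7 of 7 above 0 (median 0.21). In females 2 of 7 passed with edgeR (Aqp4 and Gfap), beside the 1.13% of all genes that passed upward with edgeR. With limma-voom 1 passed and with DESeq2 5, where these tools called 852 and 1810 genes in all, in either direction. Over both sexes DESeq2 called Gfap, among 106 genes in all. The 5 erythrocyte markers summed to 142 to 355 CPM in knock-in mice and 100.2 to 232 CPM in 5xFAD mice, and in females 3 of 5 passed with edgeR, 4 with limma-voom and 5 with DESeq2. Over both sexes DESeq2 called 2 of them. No marker was at 0 in any library. With the sexes pooled, the microglia, astrocyte and erythrocyte sums each overlapped between genotypes. Within females the astrocyte sums (knock-in 4999 to 6090 CPM, 5xFAD 3699 to 4466 CPM) did not overlap. Neither did the erythrocyte sums in females (knock-in 191.8 to 354.6 CPM, 5xFAD 100.2 to 159 CPM). Microglia sums did not overlap in males (knock-in 526.3 to 740.6 CPM, 5xFAD 364.5 to 522.4 CPM). In the other sex each of these sums overlapped. The part of these cells in the level of Ide was not tested. In bulk RNA a change in the number of cells of a type and a change of RNA in each cell cannot be told apart.

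Fgfbp3, the fourth tested gene from Ide on one side, encodes a carrier protein of fibroblast growth factors. As background, a copy-number variant of Ide and Fgfbp3 is known to segregate in C57BL/6J stocks. Copy number was not measured here, and the labels give no strain, so its part in these values was not tested. Fgfbp3 had 7.05, 8.59, 9.21 and 11.8 CPM in knock-in females, against 4.47, 5.35, 6.59, 8.22 and 8.70 CPM in 5xFAD females. It had 9.42, 9.44, 11.7, 12.6 and 15.98 CPM in knock-in males, against 5.998, 6.05, 6.09, 6.43 and 7.01 CPM in 5xFAD males. The males did not overlap, and the females did.

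Fgfbp3 averaged 10.7 ± 2.67 CPM in knock-in mice (SD, n = 9) and 6.49 ± 1.25 CPM in 5xFAD mice (SD, n = 10). The log2 change was 0.70 (SE 0.14, unadjusted p = 6.86e-05, edgeR adjusted p = 0.104), the place 12 by p among all genes, and it did not pass. Of 9 knock-in libraries 7 lay above all 5xFAD libraries. DESeq2 gave an adjusted p of 0.00316, and with edgeR it was 0.0487 when knock-in female 1 was left out, 0.0487 when knock-in male 10 was, and 0.0362 when 5xFAD male 10 was. In males the change was 0.91 (edgeR adjusted p = 0.278, and 0.013 with DESeq2) and in females 0.46 (adjusted p = 0.172), the order of the sexes opposite to that of Ide, and the difference between the sexes did not pass (-0.45, adjusted p = 0.417).

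**Figure D3:**
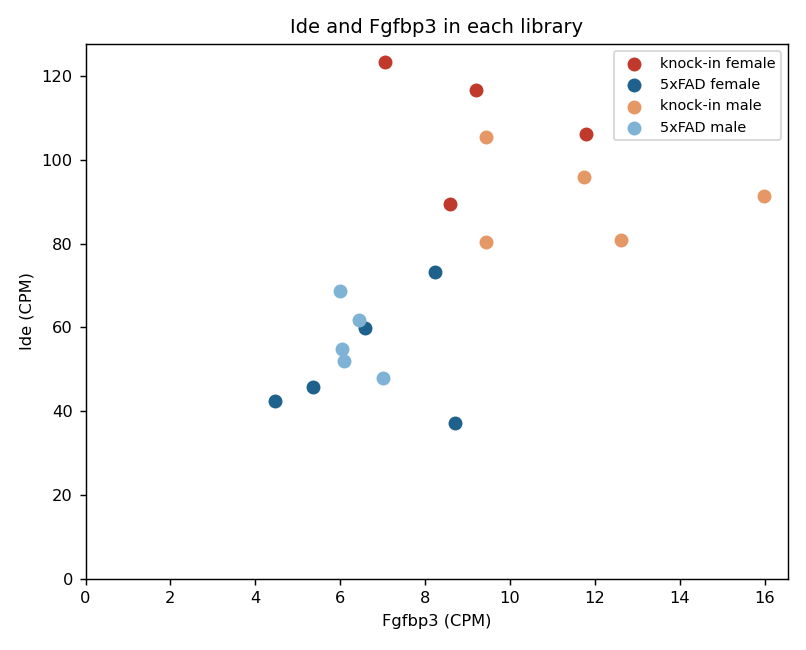
Level of Ide (y axis, CPM) against that of Fgfbp3 (x axis, CPM) in each of the 19 libraries, colored by genotype and sex. Knock-in libraries lie above 80 CPM of Ide and 7 CPM of Fgfbp3, and within a genotype the points show no common slope (r = 0.616 over all libraries, 0.042 after group means were removed).

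Over the 19 libraries the log2 levels of Ide and Fgfbp3 had a Pearson r of 0.616. This was place 287 by likeness to Ide among the 17787 tested genes with a symbol. After group means were removed r was 0.042, place 7532. The likeness of this pair was thus seen between the groups and was not shown among animals of a group. With so few animals in a group, a low r cannot show that it is absent there. The libraries share their groups and depth, and the value is a description.

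The genes around this pair did not share the pattern. Between Fgfbp3 and Ide lie 3 tested genes, the transcription regulator Btaf1 (log2 change 0.15), the translation regulator Cpeb3 (-0.10) and the mitochondrial ubiquitin ligase March5 (0.05). Beyond Ide, the mitotic kinesin Kif11 had 0.20, the homeobox gene Hhex 0.45 and the exocyst subunit Exoc6 0.02. Among the 10 tested genes on each side of Ide, the 19 other than Fgfbp3 ran from -0.73 to 0.45, with 11 above 0 and 0 past the threshold (lowest edgeR adjusted p = 0.342, for Hhex). In females alone the tankyrase gene Tnks2 rose, with a log2 change of 0.37 (edgeR adjusted p = 0.0415), which did not pass with limma-voom. It had -0.19 in males (adjusted p = 0.774). The change of Tnks2 in females minus that in males was called higher by DESeq2, among 766 genes in all, and not by edgeR or limma-voom.

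**Figure D4:**
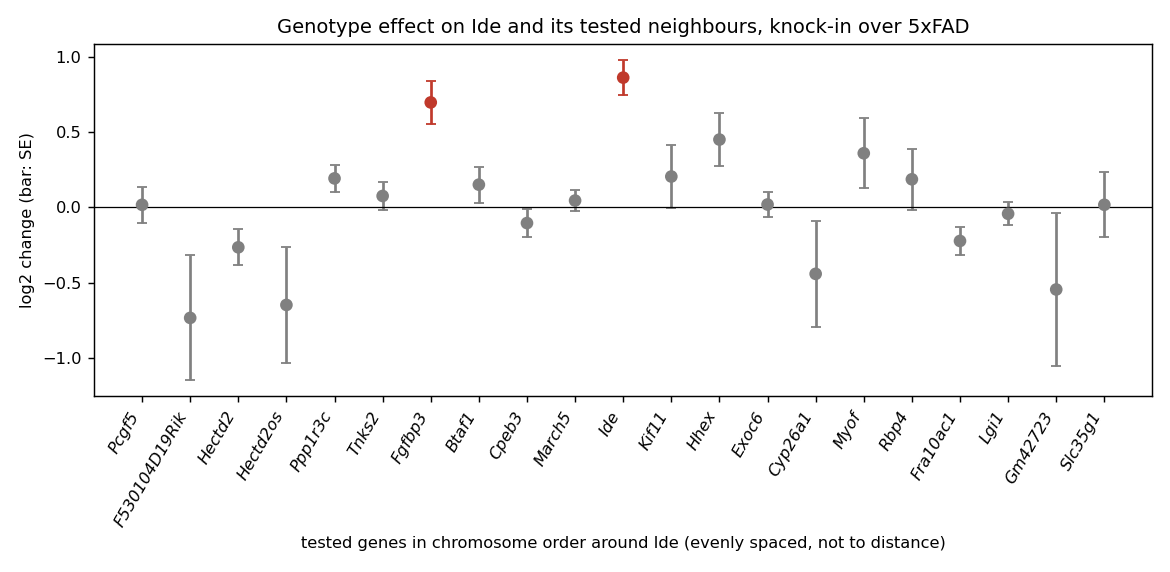
Log2 change, knock-in over 5xFAD in both sexes (y axis, bars are SE), of Ide and the 10 tested genes on each side, in chromosome order and evenly spaced (x axis). Ide at 0.86 and Fgfbp3 at 0.70, in red, stand above the other 19 genes, which run from -0.73 to 0.45.

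Neprilysin and the endothelin-converting enzymes showed no change past the threshold in any comparison. Mme, on chromosome 3, had 3.82 to 6.75 CPM in knock-in libraries and 3.12 to 6.91 CPM in 5xFAD libraries, a full overlap (log2 change 0.09, SE 0.15, edgeR adjusted p = 0.854). Ece1, on chromosome 4, had 28.1 to 41.7 CPM in knock-in libraries and 28.2 to 48.6 CPM in 5xFAD libraries (log2 change -0.04, SE 0.09, adjusted p = 0.903). Knock-in males were the tightest group for Ece1, at 36.0 ± 1.91 CPM (SD, n = 5), against 37.2 ± 5.99 CPM in 5xFAD males (SD, n = 5).

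Ece2, on chromosome 16, had 20.1, 20.4, 22 and 30.5 CPM in knock-in females and 23.9, 26.0, 27.0, 30.4 and 37.2 CPM in 5xFAD females. Of 4 knock-in females 3 lay below all 5xFAD females, and the other was among the higher values (log2 change -0.31, SE 0.17, edgeR adjusted p = 0.289). In males the change was 0.02 (adjusted p = 0.987). The exons of Ece2 share 2937 bases on 1 strand with the gene model Gm49333, which has no row in the count table, so its reads may include those of that model.

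Ace, on chromosome 11, was the member with the widest spread, from 8.02 to 167 CPM, a 20.8-fold range. Knock-in females had 73.6, 93.9, 118 and 167 CPM, against 14.1, 28.5, 55.2, 101 and 105 CPM in 5xFAD females. Knock-in males had 8.02, 10.9, 35.8, 40.9 and 97.4 CPM, against 8.19, 12.03, 12.5, 15.8 and 55.3 CPM in 5xFAD males. High and low libraries occurred in every group but knock-in females, in which all 4 were high. Exons of Ace share 295 bases with the antisense gene model Gm11651, which has no row in the count table, and the strand of the libraries is not given.

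The log2 change of Ace with the knock-in was 0.89 (SE 0.50, edgeR adjusted p = 0.498), close in size to that of Ide but within the spread between animals. Females gave 0.90 (adjusted p = 0.514), while males gave 0.89 (adjusted p = 0.859). With the noncoding level as a covariate these were -0.09 in females and 1.36 in males (adjusted p = 1 and 0.736). The direction in females thus turned, in a fit that can hardly tell this level from genotype there. Females had more Ace than males by 1.55 on the log2 scale in knock-in mice (adjusted p = 0.357) and by 1.55 in 5xFAD mice (adjusted p = 0.446), neither past the threshold. For sex, 0.0494% of genes passed in knock-in mice and 0.0385% in 5xFAD mice, and 0 of the 8 proteases did so in either (1 of 8 unadjusted in each, where 14.4% and 11.1% of all genes had an unadjusted p under 0.05).

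The level of Ace varied with that of choroid plexus genes. The choroid plexus is the secretory tissue of the ventricles next to the hippocampus. The 7 choroid plexus markers, among them the thyroid hormone carrier Ttr and Kl, were detected in every library. They summed to 3461 to 11400 CPM in knock-in females, 618.4 to 5211 CPM in 5xFAD females, 33.1 to 3393 CPM in knock-in males and 63.2 to 3466 CPM in 5xFAD males. Of the 6 libraries highest in Ace, 5 were among the 6 highest in this sum. The markers had a median log2 change of 0.93 with genotype, and 0 of 7 passed with edgeR, DESeq2 or limma-voom (0 unadjusted). Their part in the level of Ace was not tested.

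**Figure D5:**
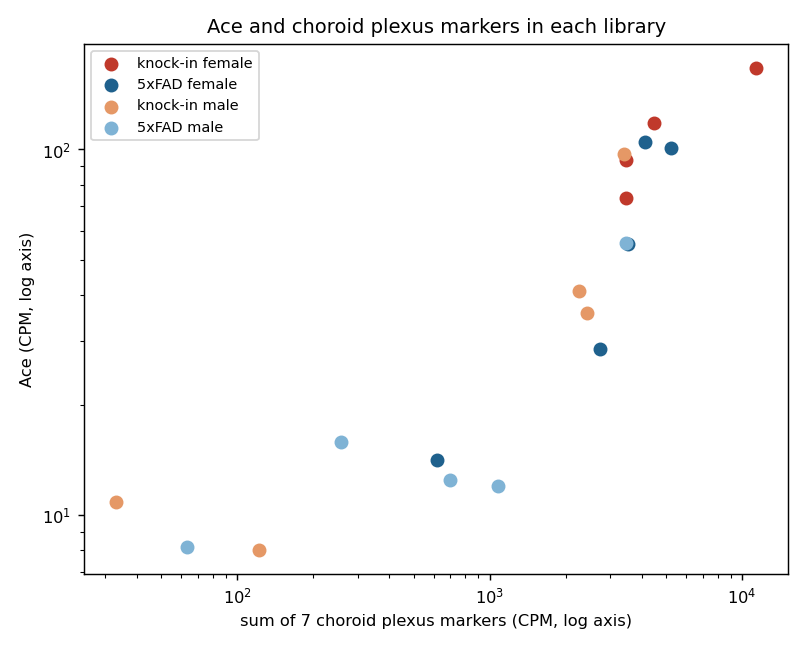
Ace (y axis, CPM, log axis) against the summed level of 7 choroid plexus markers (x axis, CPM, log axis) in each library, colored by genotype and sex. Libraries with a sum of 1080 CPM or less had 8.02 to 15.8 CPM of Ace, and those above it had 28.5 to 167 CPM.

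The matrix metalloproteases had values on the higher side in knock-in mice, and neither passed over both sexes. Mmp2, on chromosome 8, had 4.38, 4.67, 5.51 and 10.3 CPM in knock-in females and 2.39, 2.40, 3.61, 4.20 and 5.48 CPM in 5xFAD females. In males it had 2.42, 3.65, 3.67, 4.03 and 4.62 CPM with the knock-in and 1.64, 2.15, 2.38, 3.11 and 4.38 CPM in 5xFAD. The groups overlapped in both sexes (log2 change 0.60 over both, SE 0.21, unadjusted p = 0.0109, edgeR adjusted p = 0.318), where 11.9% of all genes had an unadjusted p under 0.05. In females the change was 0.77 (adjusted p = 0.138), and 0.15 with the noncoding level as a covariate (adjusted p = 1). The groups of females did not overlap in that level, so the latter value cannot decide the change.

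Mmp14, whose product activates that of Mmp2, lies on chromosome 14, as Clu does. It had 15.99, 17.9, 21.4 and 23.2 CPM in knock-in females and 12.4, 13.1, 15.02, 15.2 and 16.2 CPM in 5xFAD females, where 3 of 4 knock-in libraries lay above all 5xFAD libraries. In males it had 15.2, 15.2, 15.4, 15.9 and 20.5 CPM with the knock-in, against 13.0, 13.4, 15.9, 15.9 and 18.6 CPM in 5xFAD, which overlapped. The log2 change was 0.26 over both sexes (SE 0.10, edgeR adjusted p = 0.337), with 0.45 in females (SE 0.14, adjusted p = 0.0589) and 0.09 in males (SE 0.13, adjusted p = 0.934). The value in females was near the threshold. DESeq2 gave 0.0242. With edgeR it fell under the threshold when any 1 of 6 libraries was left out, which were knock-in female 1 (0.0322), knock-in males 7 (0.0423) and 10 (0.0482), and 5xFAD males 6 (0.0495), 9 (0.0434) and 10 (0.042). The difference between the sexes was 0.36 (adjusted p = 0.341).

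Fibroblasts of the meninges are a known source of Mmp2 and Mmp14. The 6 meningeal fibroblast markers summed to 29.3 to 164 CPM in knock-in mice and 52.2 to 106 CPM in 5xFAD mice. Their log2 changes were above 0 in 6 of 6 (median 0.54), with 4 at an unadjusted p under 0.05 and 0 past the threshold over both sexes with edgeR, DESeq2 or limma-voom. Over all genes 11.9% had such an unadjusted p. In females DESeq2 called the collagen gene Col1a2 and the matrix proteoglycan gene Lum higher, among 1810 genes in all. With edgeR and limma-voom 0 of the 6 markers passed in females. No marker was at 0, and the part of these cells in the levels of Mmp2 and Mmp14 was not tested. The libraries highest in Mmp2, knock-in females 4 and 1 and 5xFAD female 2, were also highest in the choroid plexus sum (11400, 4490 and 5211 CPM). Others went the other way, such as 5xFAD female 5 (sum 3521 CPM, Mmp2 2.40 CPM) and 5xFAD male 8 (sum 257.7 CPM, Mmp2 4.38 CPM). The part of the choroid plexus in the level of Mmp2 was not tested.

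Plat, on chromosome 8, had the smallest ratio of highest to lowest library of the 8, 1.58, with 25.7 to 40.7 CPM. It had 27.8, 28.4, 28.7 and 40.7 CPM in knock-in females and 28.9, 29.7, 31.2, 32.1 and 33.3 CPM in 5xFAD females. Knock-in males had 25.7 to 37.4 CPM and 5xFAD males 30.5 to 37.0 CPM. The knock-in mice thus held both the lowest values and the highest, and the log2 change was -0.06 (SE 0.08, edgeR adjusted p = 0.832).

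The other genes of these pathways were counted from lists chosen by known function, with earlier results of these data known. Of 15 further proteases reported to cut amyloid-beta, 12 were in the table and 11 were tested. Over both sexes 0 passed with edgeR or limma-voom and Ctsd alone with DESeq2, and the unadjusted p was under 0.05 for 5, beside 11.9% of all genes. Ctsd, the lysosomal aspartic protease cathepsin D, had 1151 ± 233 CPM in knock-in mice (SD, n = 9) and 812 ± 121 CPM in 5xFAD mice (SD, n = 10), a log2 change of 0.51 (edgeR adjusted p = 0.0805). In females it rose (0.53, adjusted p = 0.0395), the 1 gene of this list to pass with edgeR, beside 1.13% of all genes upward. In females 0 passed with limma-voom and 3 with DESeq2, which were Ctsd, the lysosomal cysteine protease Ctsb and the secreted serine protease Htra1. DESeq2 called 1810 genes in all there.

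Inhibitors of these proteases had 10 tested members, of which 0 passed over both sexes with edgeR, DESeq2 or limma-voom. The unadjusted p was under 0.05 for 2, beside 11.9% of all genes. In females 2 of 10 passed upward with edgeR, beside 1.13% of all genes. Serpine2, which encodes protease nexin, an inhibitor of plasminogen activators and thrombin, averaged 224 ± 23.6 CPM in knock-in females (SD, n = 4) and 159 ± 8.52 CPM in 5xFAD females (SD, n = 5), a log2 change of 0.49 (edgeR adjusted p = 0.0143). Timp3, an inhibitor of matrix metalloproteases held in the extracellular matrix, averaged 144 ± 28.2 CPM in knock-in females (SD, n = 4) and 95.6 ± 16.5 CPM in 5xFAD females (SD, n = 5), a change of 0.59 (adjusted p = 0.0225). The median log2 change of the inhibitors in females was 0.46, with 10 of 10 above 0, beside 51.1% of all genes.

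Of 4 receptors and cofactors that bind these proteases at the cell surface, 0 passed in either sex or over both with edgeR or limma-voom. Over both sexes the unadjusted p was under 0.05 for 1, beside 11.9% of all genes. The annexin Anxa2, a plasminogen activator cofactor, had a log2 change of 0.39 (edgeR adjusted p = 0.353), and its partner S100a10 had 0.24 (adjusted p = 0.448). Lrp1, the clearance receptor of amyloid-beta and of plasminogen activator, averaged 346 ± 46.9 CPM in knock-in females (SD, n = 4) and 449 ± 35.2 CPM in 5xFAD females (SD, n = 5). Its change in females was -0.38 (edgeR adjusted p = 0.0664), and DESeq2 called it lower. The change of Lrp1 in females minus that in males was also called lower by DESeq2, among 766 genes in all, and not by edgeR or limma-voom.

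Of 14 peptide substrates of these enzymes and their receptors, 0 passed over both sexes with edgeR, DESeq2 or limma-voom. The unadjusted p was under 0.05 for 1, beside 11.9% of all genes. In females 1 passed upward with edgeR, beside 1.13% of all genes. The endothelin receptor Ednrb rose in females, at 69.2 ± 13.1 CPM in knock-in females (SD, n = 4) and 47.1 ± 10.5 CPM in 5xFAD females (SD, n = 5), with a log2 change of 0.55 (edgeR adjusted p = 0.0388). Edn3, the peptide precursor endothelin 3 and a substrate of the converting enzymes, had 0.47 over both sexes (adjusted p = 0.272). In females DESeq2 called 2 of the 14 higher, Edn3 and Ednrb, among 1810 genes in all, and limma-voom called Ednrb alone. Of the 12 closest paralogues of the 8 proteases, 11 were tested and 0 passed with edgeR, DESeq2 or limma-voom. Over both sexes the unadjusted p was under 0.05 for 1, beside 11.9% of all genes. The urokinase gene Plau, a paralogue of Plat, had 0.53 (edgeR adjusted p = 0.284), and Pmpcb, of the mitochondrial processing peptidase and a relative of Ide, had 0.12 (adjusted p = 0.517). In females, where these calls lie, 7 of 8 long noncoding RNAs passed downward with edgeR, beside 4.43% of all genes. With the noncoding level as a covariate 0 genes passed in females, so the calls of Ctsd, Serpine2, Timp3, Ednrb and Tnks2 in females were lost as well. That level did not overlap between the groups of females, so this fit cannot tell it from genotype there and does not decide these calls.

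The genes whose log2 levels were most like each protease over the 19 libraries differed from member to member. For Ide they were the hypoxia-inducible factor gene Epas1 (r = 0.811), the chemerin receptor Cmklr1 (0.807) and the kelch gene Klhl5 (0.799). After group means were removed these values were 0.444, 0.655 and 0.601. For Ace they were the glucose transporter Slc2a12 (r = 0.987), the homeobox gene Msx1 (0.986) and Kl (0.979), and with group means removed they stayed at 0.977, 0.976 and 0.961. Kl is also 1 of the 7 choroid plexus markers.

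For Mmp14 the closest were the endoplasmic reticulum chaperone Calr (r = 0.927), the neonatal Fc receptor gene Fcgrt (0.912) and Mtfr1l (0.894), and for Mmp2 they were the adenosine receptor Adora2b (0.886), Pcp4l1 (0.837) and Tmem237 (0.833). For Ece1 they were the kinase Mast2 (0.872), Ttyh3 (0.843) and Synj2 (0.84), and for Ece2 the corepressor Sin3b (0.884), Cep131 (0.865) and Zfp513 (0.838). Plat was closest to the adrenergic receptor Adra2a (0.863), the antisense RNA Gm20163 on the chromosome of Plat (0.772) and Sap30 (0.748). Mme was closest to the lactate receptor Hcar1 (0.788), Hlx (0.769) and Gm36283 (0.762). No protease was among the 3 genes closest to another, and the libraries behind these values share their groups, depth and RNA composition.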

How the data were processed

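The 8 proteases and all gene lists were chosen with earlier results of these data known. The authors deposited estimated counts for each gene, as whole numbers, which were used for all tests. A second table the authors deposited holds normalized counts, a signal scaled by factors that vary by gene and library, and served as an alternative on the log2 scale (pseudocount 1). Variance-stabilized values were not used. Salmon, FastQC, Seurat and DESeq2 and the build mm39 are named in the submitters' processing notes, and versions and the strand of the libraries are not given in the sources used here. Symbols, gene order and exon lengths came from GENCODE M21 (GRCm38), which named 20023 of 20655 genes (96.9%), and start regions from RefSeq (GRCm38.p6), so gene coordinates on the authors' build are not printed.

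Counts were tested in R 4.3.3 with edgeR 4.0.16 (filterByExpr on the 4 groups with a minimum count of 10, TMM, robust quasi-likelihood F-test), with Benjamini-Hochberg adjustment over the 18204 genes left and a threshold of 0.05. A model over 19 libraries with sex as a covariate gave the genotype effect. Effects within a sex, the interaction and sex effects (female minus male) came from a model with a mean for each group. Each SE is the absolute log2 change divided by the square root of the F statistic of its test. DESeq2 1.42.0, limma 3.58.1 (voom), other scalings and filters, a covariate, a replicate block and each library left out were alternatives. Correlations used log2 CPM (prior count 2), and likeness was ranked among the 17787 tested genes with a symbol. The code was tested on simulated data. All pairs of libraries held different values (0 identical). P values measure the spread between animals of these cohorts.

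Genes named are the 8 proteases, Clu, the neighbours of Ide, members of the pathway lists past the threshold in any genotype comparison (otherwise the 2 with the lowest p), and the 3 genes most like each protease. Lrp1, Edn3, Ctsb, Htra1 and single marker genes lie outside this rule and were named after their values were seen, and the noncoding RNAs are given as a group. Genes that 2 lists share count in both.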

Additional observations from a re-analysis of the deposited data

Results flagged for a closer look

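In 3 of the 32 sets of 1 protease in 1 group, a single library stood far from the others by Dixon's gap test, which chance gives in about 1 of 20 groups. Ace was at 55.3 CPM in 5xFAD male 10, where the next male had 15.8 CPM. Mmp14 was at 20.5 CPM in knock-in male 7, where the next had 15.9 CPM. Plat was at 40.7 CPM in knock-in female 1, where the next had 28.7 CPM. No protease passed the test of a difference between the sexes in its change with the knock-in.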

How the results depend on the processing

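Ide kept its call over both sexes in 27 of 28 alternatives, with a log2 change of 0.72 to 0.94. The exception was the fit with replicate numbers as a block, in which 0 proteases and 0 genes in all passed (Ide 0.85, adjusted p = 0.131). Libraries of the same number did not deviate together (r from -0.543 to 0.221, 2 of 9 pairs over 0.1). These values gave no sign of pairing, but they cannot show that the numbers stand for no block, and the labels do not say. In females, where 1 protease passed, the replicate block gave 0 (Ide 1.08, adjusted p = 0.0979), the noncoding covariate 0, and DESeq2, no low-count filter and a filter of 1 CPM in at least 4 libraries 2 each, with Mmp14 added (adjusted p = 0.0242, 0.0437 and 0.0446). Leaving out 1 library gave 0 to 2 in females. In males, where 0 passed, DESeq2 called 1, Ide. Over its alternatives, adjusted p ran from 5.66e-08 to 0.131 for Ide over both sexes, from 2.61e-06 to 1 in females and from 0.0443 to 1 in males. It ran from 0.0242 to 1 for Mmp14 in females and from 0.00316 to 0.498 for Fgfbp3 over both sexes. The interaction and the sex effects gave 0 proteases in every alternative run. The causes were not tested. DESeq2 called more genes in all: 106 against 4 with edgeR over both sexes, 1810 against 1013 in females, 19 against 0 in males, 766 against 56 for the interaction (limma-voom 0), 510 against 9 for sex in knock-in animals and 47 against 7 for sex in 5xFAD animals. Without gene length, Ide came before Ace and Mme before Mmp2 in the order of levels. Low counts limit Mmp2 (32 to 197 in each library) and Mme.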
